A study of Mus musculus with 9 samples.

Results

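Germ granules are cytoplasmic bodies of germ cells in which PIWI proteins and their piRNAs, short guide RNAs that silence transposons, are loaded and matured. Tudor-domain proteins hold the granule together by binding methylated arginines of PIWI proteins, RNA helicases hand over piRNA precursors, and mitochondrial scaffold proteins anchor the machinery. The pathway is best known from fetal and adult testis, where its loss arrests spermatogenesis, and many of its genes are also transcribed in oocytes. The members followed here, *Ddx4*, *Dazl*, *Mael*, *Piwil2*, *Piwil4*, *Mov10l1*, *Asz1*, *Tdrd1*, *Tdrd5* and *Tdrd9*, were measured in fetal mouse ovaries before and after grafting into male hosts. They are 10 of 18194 genes that had a probe set of their own, and 13 of the 45101 probe sets on the array. For each gene, the probe set annotated to that gene alone with the highest mean over the 9 arrays was used, and the other 3 probe sets, for *Dazl*, *Piwil4* and *Asz1*, served as a check.

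The tissue was the XX ovary of E13.0 embryos (labelled strain ICR; C57BL/6 and ICR mothers in the methods), taken without mesonephros from wild-type mothers that had all received busulfan, an alkylating agent given to deplete germ cells. Ovaries before transplantation made up the day 0 group, with 2 arrays. The grafts were kept under the kidney capsule of adult male nude mice (BALB/c, nu/nu; XY-host) and recovered after 4 to 20 days, with 2 arrays each for days 10 and 20 and a single array each for days 4, 7 and 15. Each array held RNA pooled from about 10 grafts, no ungrafted ovary of the later ages or graft in a female host was among the arrays, and the sources do not say which litters and hosts went into a pool. The labels call the duplicates biological replicates, and a p-value here measures the spread between such pools. Values are log2 signals normalised by the robust multiarray algorithm (RMA), and a difference of 1 is 2-fold. Levels are compared between arrays for the same probe set, never between genes. In such bulk tissue, fewer germ cells and less RNA per germ cell cannot be told apart.

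Array medians lay between 6.49 and 6.63. The granulosa marker *Foxl2* read 11.44 and 11.58 on the day 0 arrays and 11.71 to 12.98 on the graft arrays. The day 20 replicate 1 array stood apart: its mean over 6 kidney proximal tubule genes was 11.42, against 5.39 to 6.05 on the other 8 arrays, and the day 20 comparisons were therefore repeated without it. The 4 macrophage genes averaged 7.56 and 8.22 on day 0 and 9.88 to 11.56 on the graft arrays.

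Promoters of germ granule genes such as *Dazl* and *Ddx4* are known for being rich in CG and for being silenced by DNA methylation outside the germ line. No methylation was measured here. The RefSeq windows (mouse build GRCm38.p6) ran from 250 bases before the transcription start to 50 bases from it on. They are shown for *Ddx4* and *Dazl*, whose values moved together, and for *Tdrd5*, whose values ran apart from theirs. The window of *Mov10l1* is also shown, as its graft arrays all stayed near day 0 replicate 1 and below replicate 2. Each runs 5′ to 3′ on the gene's strand, and capitals mark every CG.
*Ddx4* promoter, chr13:112652261-112652560, - strand: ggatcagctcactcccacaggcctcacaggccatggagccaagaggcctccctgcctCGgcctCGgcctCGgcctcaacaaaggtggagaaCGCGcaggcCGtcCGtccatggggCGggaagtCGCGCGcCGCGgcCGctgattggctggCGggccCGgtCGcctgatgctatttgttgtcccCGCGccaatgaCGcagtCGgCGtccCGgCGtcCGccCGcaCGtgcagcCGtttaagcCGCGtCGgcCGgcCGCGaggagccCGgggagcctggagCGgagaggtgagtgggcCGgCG
*Dazl* promoter, chr17:50293571-50293870, - strand: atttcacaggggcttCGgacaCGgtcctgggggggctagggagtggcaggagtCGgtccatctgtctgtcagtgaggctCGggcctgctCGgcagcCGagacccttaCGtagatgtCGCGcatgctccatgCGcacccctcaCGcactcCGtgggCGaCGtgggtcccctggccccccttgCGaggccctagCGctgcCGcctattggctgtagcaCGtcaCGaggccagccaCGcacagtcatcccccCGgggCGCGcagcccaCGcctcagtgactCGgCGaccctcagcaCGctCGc
*Tdrd5* promoter, chr1:156303299-156303598, - strand: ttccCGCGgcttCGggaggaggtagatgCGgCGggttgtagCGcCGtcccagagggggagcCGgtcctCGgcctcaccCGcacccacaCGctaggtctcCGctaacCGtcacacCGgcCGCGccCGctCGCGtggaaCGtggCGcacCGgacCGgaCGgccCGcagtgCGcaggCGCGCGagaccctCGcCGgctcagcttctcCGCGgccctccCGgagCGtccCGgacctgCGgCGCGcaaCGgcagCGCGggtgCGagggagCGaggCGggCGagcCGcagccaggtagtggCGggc
*Mov10l1* promoter, chr15:88982744-88983043, + strand: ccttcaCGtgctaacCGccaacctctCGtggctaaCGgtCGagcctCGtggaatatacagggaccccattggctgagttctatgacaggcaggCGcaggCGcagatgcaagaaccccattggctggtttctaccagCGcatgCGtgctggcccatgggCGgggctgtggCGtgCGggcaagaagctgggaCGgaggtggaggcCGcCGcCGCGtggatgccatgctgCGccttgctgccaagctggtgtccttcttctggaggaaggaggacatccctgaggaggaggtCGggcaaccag
The *Tdrd5* window held 48 CGs, more than 98.8% of the 32851 windows in the table, whose median was 7. *Ddx4* held 38 (more than 95.0% of windows), *Dazl* 28 (85.8%) and *Mov10l1* 20 (73.5%). Windows were found for 9 members, *Piwil2* being the member without one. The E-box CACGTG, which reads the same on both strands and contains a CG, occurred in a window of 5 of the 9 members and in 7.15% of all windows; in *Ddx4* it began 29 bases before the start, at position -29, and in *Mov10l1* at -246. The letters GCGGGA, searched on both strands as an E2F-type sequence, occurred in 3 of the 9 members and in 20.0% of all windows, at -136 in *Ddx4* and at -249 in *Tdrd5*. *Dazl* held neither.

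*Ddx4* encodes the Vasa RNA helicase, the classical cytoplasmic marker of germ cells and a core component of germ granules (GRCm38.p6, chr13:112598333-112652633). It read 7.37 and 9.61 on the day 0 arrays, 4.76 on day 4, 5.84 on day 7, 6.76 and 8.74 on day 10, 8.80 on day 15, and 8.21 and 8.77 on day 20. The day 4 and day 7 arrays were below both day 0 arrays, and all later arrays except day 10 replicate 1 lay between the day 0 values. On the log2 scale the day 4 array differed from day 0 replicate 2 by -4.85 and from replicate 1 by -2.62.

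*Dazl*, an RNA-binding protein that controls translation in germ cells and licenses their entry into gametogenesis (chr17:50279393-50293620), gave 9.15 and 11.12 on day 0, 6.22 on day 4, 7.48 on day 7, 7.34 and 9.22 on day 10, 9.34 on day 15, and 9.47 and 9.96 on day 20. The lowest array was again that of day 4, and only the arrays of days 15 and 20 and day 10 replicate 2 reached the lower of the day 0 values. A further *Dazl* probe set gave 8.51 and 9.25 on day 0, 6.12 on day 4 and 9.34 on day 20 replicate 2. In that probe set the day 0 arrays differed by 0.75, less than the 1.97 of the first, and the day 4 array was again the lowest.

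*Mael*, a granule protein needed for transposon silencing (chr1:166201385-166238744), read 6.09 and 8.84 on day 0, 4.63 on day 4, 6.40 on day 7, 6.32 and 8.55 on day 10, 7.07 on day 15, and 6.16 and 7.33 on day 20. Its day 0 arrays differed 6.69-fold, the widest gap between duplicates of any member, and every graft array except that of day 4 lay between them.

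The PIWI proteins bind the piRNAs themselves. *Piwil2* (MILI, chr14:70372477-70436898) gave 6.0 and 7.50 on day 0, 4.85 on day 4, 6.21 on day 7, 5.93 and 7.49 on day 10, 6.39 on day 15, and 5.34 and 6.11 on day 20. Its lowest array was that of day 4, and the highest graft array, day 10 replicate 2, was level with day 0 replicate 2. *Piwil4* (MIWI2, the nuclear PIWI protein of fetal male germ cells, chr9:14701776-14740672) lay between 3.63 and 4.63 on the 9 arrays, 3.82 and 4.05 on day 0. All of these were under 4.82, the 25th percentile of all values, as were those of its second probe set (3.08 to 3.49), so no pattern is read from this gene. Its first probe set also carries the suffix by which the manufacturer marks probes that can match other transcripts.

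*Mov10l1*, the RNA helicase that passes piRNA precursors to PIWI proteins (chr15:88982891-89055152), read 6.17 and 8.17 on day 0, 6.12 on day 4, 6.25 on day 7, 6.07 and 6.56 on day 10, 6.19 on day 15, and 5.99 and 5.79 on day 20. The 7 graft arrays spanned only 0.77, from 5.79 to 6.56, and all were near day 0 replicate 1 and far below replicate 2. Over the same 7 arrays *Ddx4* spanned 4.04, *Mael* 3.92 and *Dazl* 3.74.

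*Asz1* (GASZ), a scaffold on the outer membrane of mitochondria (chr6:18050964-18109061), gave 5.66 and 7.97 on day 0, 4.88 on day 4, 6.0 on day 7, 5.71 and 7.00 on day 10, 7.26 on day 15, and 7.06 and 7.96 on day 20. The day 4 array was the only one below both day 0 arrays, and day 20 replicate 2 was level with the higher of them. In its second probe set the day 4 value of 5.59 was above day 0 replicate 1, at 5.48, so the low on day 4 was not seen in both.

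Of the Tudor-domain genes, *Tdrd1* (chr19:56826171-56870012), a direct partner of PIWI proteins, read 4.17 and 5.13 on day 0, 4.54 on day 4, 4.80 on day 7, 5.0 and 6.32 on day 10, 5.52 on day 15, and 5.36 and 5.96 on day 20. Its day 15 and day 20 arrays were above both day 0 arrays, and those of days 0, 4 and 7 lay near the 25th percentile. *Tdrd9* (chr12:111971488-112068854), which joins a helicase to a Tudor domain and works with MIWI2, gave 6.35 and 6.66 on day 0, 6.19 on day 4, 6.45 on day 7, 6.12 and 7.46 on day 10, 6.92 on day 15, and 6.68 and 7.00 on day 20. Its whole span was 1.34, set by the duplicates of day 10.

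*Tdrd5*, a Tudor protein that also carries LOTUS domains and is needed for granule assembly in spermatids (chr1:156255296-156304304), stood apart from the other members. It read 6.01 and 7.53 on day 0, 8.60 on day 4, 9.19 on day 7, 9.68 and 9.89 on day 10, 9.83 on day 15, and 8.89 and 10.28 on day 20. All 7 graft arrays were above both day 0 arrays, which was so for no other member and for 10.3% of all probe sets, while 0 members and 19.6% of all probe sets had every graft array below both.

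**Figure D1:**
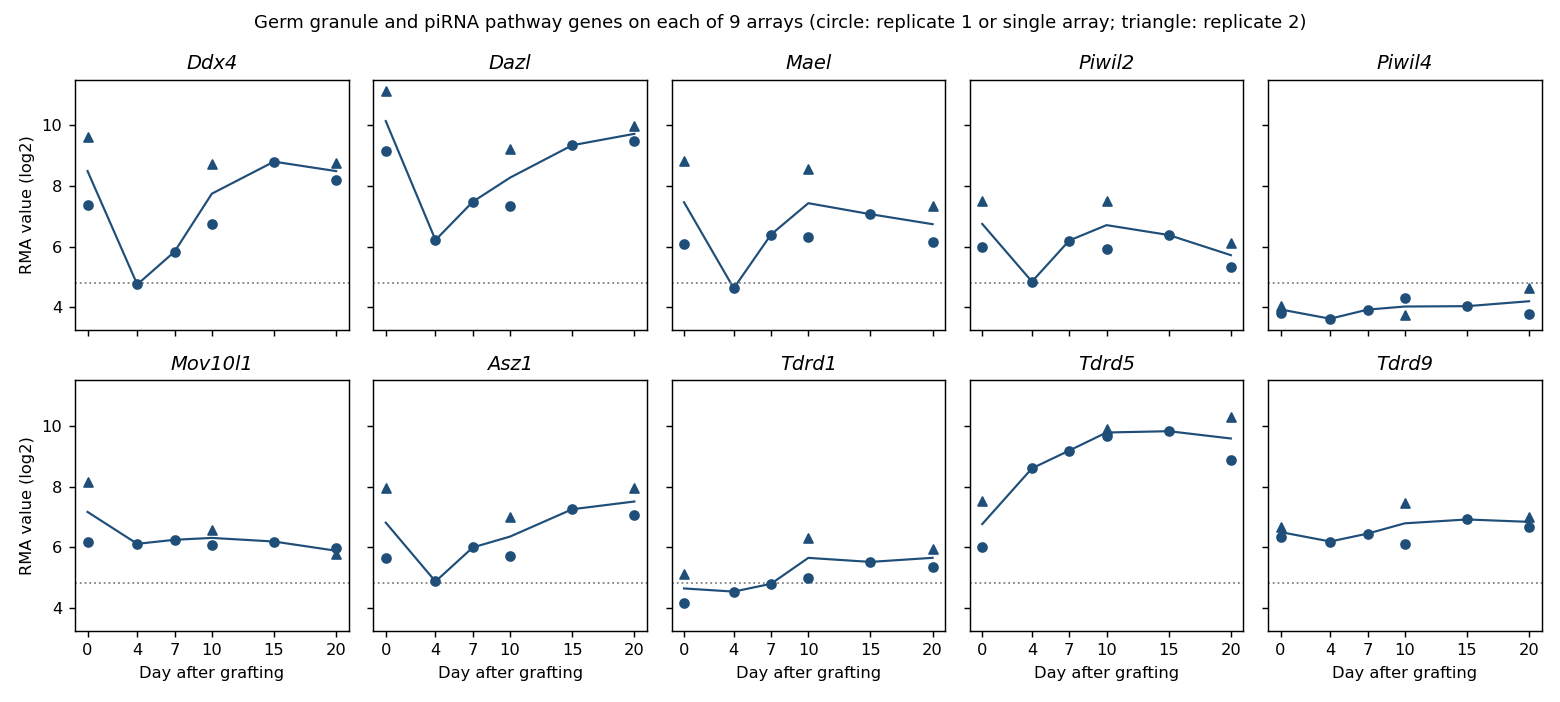
RMA log2 value (y axis) of the 10 members against day post-transplantation (x axis); circles are replicate 1 or the single array of a day, triangles replicate 2, lines join the day means, and the dotted line is the 25th percentile of all values, 4.82. *Ddx4* and *Dazl* are lowest on day 4 (4.76 and 6.22), *Tdrd5* is above both day 0 arrays on every graft array (8.60 to 10.28), and *Piwil4* lies under the dotted line throughout.

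The duplicates of one day differed in a way the members shared. On day 0 all 10 members were higher in replicate 2 than in replicate 1, 7 of them more than 2-fold, against 1.01% of all probe sets; the median difference was 1.75 for the members and 0.04 for all probe sets. After *Mael* the widest gaps were those of *Asz1* (4.97-fold), *Ddx4* (4.72-fold), *Mov10l1* (4.00-fold) and *Dazl* (3.93-fold), and the narrowest were *Tdrd9* (1.23-fold) and *Piwil4* (1.17-fold). On day 10, 7 members were more than 2-fold higher in replicate 2 (1.82% of all probe sets), and *Tdrd5* differed by only 1.15-fold. On day 20, 2 members, *Tdrd5* (2.62-fold) and *Mael* (2.26-fold), were more than 2-fold higher in replicate 2 (3.1% of all probe sets). Replicate 1 of day 20 is the array with kidney transcripts, and genes of other ovarian cells were higher in replicate 2 too. The pre-granulosa list described below averaged 9.78 and 10.53, and the growing-follicle granulosa list 10.29 and 10.85. The macrophage genes went the other way (11.29 and 10.81).

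On days 0 and 10, many other germ cell genes moved with them. Of 21 measured genes of the fetal germ cell, meiosis and oocyte lists, 11 were more than 2-fold higher in day 0 replicate 2 than in replicate 1 (1.01% of all probe sets). For day 10 replicate 2 the count was 13 (1.82%), and for day 20 replicate 2 it was 1 (3.1%). None of the 21 was more than 2-fold lower on day 0 (3.29% of all probe sets), day 10 (0.129%) or day 20 (4.06%). The 5 measured fetal germ cell genes (*Pou5f1*, *Dnd1*, *Dppa3*, *Tfap2c*, *Sall4*) averaged 7.17 and 8.78 on the day 0 arrays, 5.38 on day 4, 6.49 on day 7, 7.15 and 8.47 on day 10, 8.55 on day 15, and 8.02 and 8.87 on day 20. That mean was lowest on day 4, as *Ddx4* was. It was higher in replicate 2 on all 3 days with duplicates, as the pre-granulosa and growing-follicle granulosa means were on day 20. Its genes were not alike: *Dppa3*, a maternal factor of germ cells and oocytes, read 7.90 and 10.08 on day 0, 5.14 on day 4 and 10.53 to 12.44 from day 10 on, above both day 0 arrays. *Dnd1*, an RNA-binding protein needed for germ cell survival, was below both day 0 arrays on all 7 graft arrays and no higher in day 10 replicate 2 (7.07) than in replicate 1 (7.12). How much the number of germ cells in each pool, or the kidney transcripts in day 20 replicate 1, contributed was not tested.

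**Figure D2:**
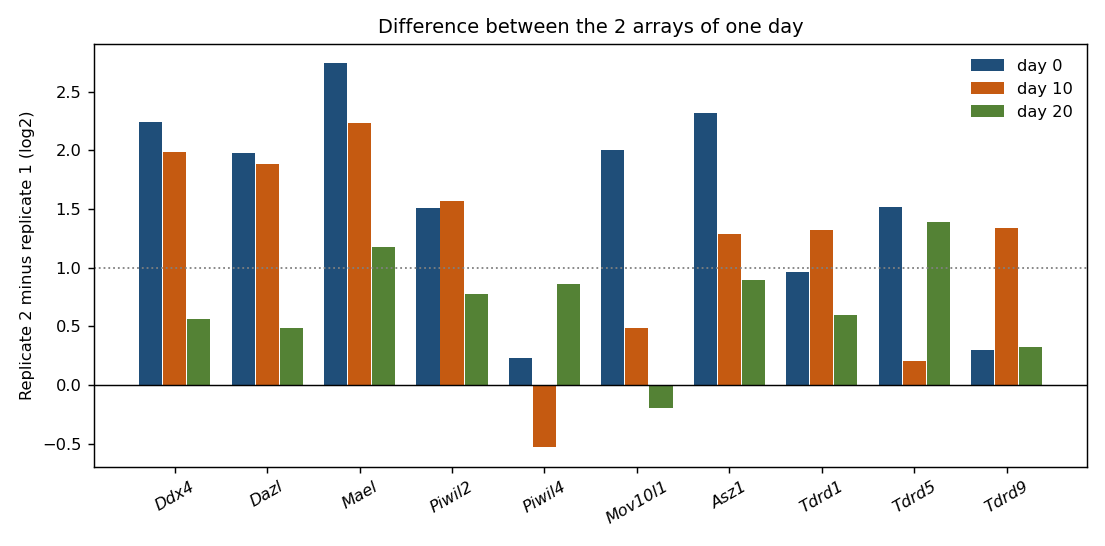
Replicate 2 minus replicate 1 in log2 units (y axis) for each member (x axis) on days 0, 10 and 20; the dotted line marks 2-fold. All 10 members are above 0 on day 0, 9 on day 10 and 9 on day 20, and the day 0 bars run from 0.23 (*Piwil4*) to 2.74 (*Mael*).

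To ask which members changed in the grafts, each day was compared with day 0 in one limma fit over all 45101 probe sets and 9 arrays, and a gene was called at a Benjamini-Hochberg adjusted p under 0.05 and a change over 2-fold. No member was called on day 10 or day 20. On day 10 the fit called 0 of 10 members higher, against 2.87% of all probe sets, and 0 lower, against 1.33%; 1 member had an unadjusted p under 0.05. The median log2 fold change was -0.04 for the members and -0.09 for all probe sets. On day 20 it called 0 higher (4.52% of all probe sets) and 0 lower (3.1%), again with 1 member at an unadjusted p under 0.05, and the medians were 0.13 and -0.11.

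*Tdrd5* was the member at that unadjusted p on both days. It was 8.08-fold higher on day 10 than on day 0 (log2 fold change 3.01, SE 0.63, n = 2 and 2, limma adjusted p = 0.0617) and 7.05-fold higher on day 20 (2.82, SE 0.63, adjusted p = 0.0506), just outside the threshold. Without day 20 replicate 1, the array with kidney transcripts, the day 20 difference was 3.51 (adjusted p = 0.0511). The 15 other settings tried amounted to 12 distinct fits for each day, since leaving out an array of the third day leaves the same estimate as fitting the compared days alone. *Tdrd5* passed the threshold in 5 of the 12 for day 10 (adjusted p between 0.0161 and 0.356) and in 5 of the 12 for day 20 (0.0237 to 0.166), and its log2 fold change stayed between 2.06 and 3.77.

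The remaining members had SEs between 0.34 and 1.11. *Dazl* had a log2 fold change of -1.86 (SE 0.83, adjusted p = 0.281) on day 10 and -0.42 (SE 0.83) on day 20. *Ddx4* was at -0.75 on day 10 (SE 0.91), and its mean was 8.49 on both day 20 and day 0, with an SE of 0.91 on the difference. *Mov10l1* was at -0.86 on day 10 and -1.28 on day 20 (SE 0.63, adjusted p = 0.264), and *Piwil2* at -0.04 and -1.03 (SE 0.70). *Tdrd1* was at 1.01 on both days (SE 0.53, adjusted p = 0.356 and 0.296), but at 0.68 on both once values under the 25th percentile were raised to it, and its day 10 value ran from 0.35 to 1.67 without either array of that day. Taken as the median over both of its probe sets, *Dazl* was at -1.32 on day 10 and -0.08 on day 20. Without day 20 replicate 1 the day 20 values were -0.18 for *Dazl*, 0.28 for *Ddx4*, -0.14 for *Mael*, -0.64 for *Piwil2*, 0.70 for *Piwil4*, -1.38 for *Mov10l1*, 1.14 for *Asz1*, 1.31 for *Tdrd1* and 0.50 for *Tdrd9*, none of them called.

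Leaving out day 0 replicate 1, so that replicate 2 was the only reference, gave the one call of another member: *Mov10l1* was then lower on day 20, with a log2 fold change of -2.28 (SE 0.29, limma adjusted p = 0.0468). In that fit day 0 is a single array, assumed to vary like those of days 10 and 20, and the 4.00-fold gap between the day 0 arrays no longer enters the spread. Without day 0 replicate 2 the day 20 value was -0.28 (adjusted p = 0.685), and the day 10 value turned positive, at 0.14. The choice of day 0 array thus set the sign for *Ddx4*, *Mael* and *Dazl* as well, which on day 20 were at 1.12, 0.65 and 0.57 without replicate 2 and at -1.12, -2.09 and -1.41 without replicate 1.

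**Figure D3:**
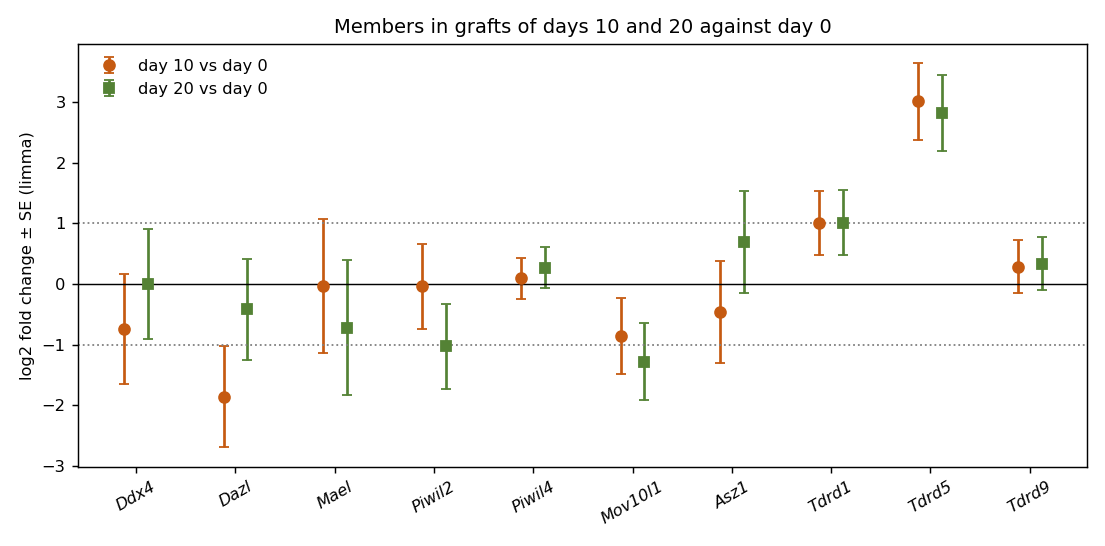
log2 fold change (y axis, point and SE from limma) of each member (x axis) on day 10 and day 20 against day 0, 2 arrays in each group; dotted lines mark 2-fold in either direction. *Tdrd5* lies at 3.01 and 2.82, and the other members lie between -1.86 (*Dazl*, day 10) and 1.01 (*Tdrd1*), with no adjusted p under 0.05.

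Read as ranges, the day 10 arrays were above both day 0 arrays for 1 member, *Tdrd5* (21.3% of all probe sets), and below both for 0 (38.3%). Those of day 20 were above both for 3 members, *Tdrd1*, *Tdrd5* and *Tdrd9* (18.9%), and below both for 1, *Mov10l1* (35.3%). With 2 arrays against 2, such gaps were common among all probe sets. Between day 20 and day 10, limma called 0 members higher (0.00222% of all probe sets, a single probe set) and 0 lower (0%), and 0 members had an unadjusted p under 0.05.

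The early grafts were 1 array each, assumed to vary like those of the other days. On day 4, 0 members were called higher (0.774% of all probe sets) and 0 lower (0.155%), with 2 at an unadjusted p under 0.05: *Dazl*, 15.1-fold lower (log2 fold change -3.92, SE 1.02, limma adjusted p = 0.241), and *Ddx4*, with a log2 fold change of -3.73 (SE 1.12, adjusted p = 0.317) and a day 4 value, 4.76, under the 25th percentile. The members' median was -1.48, against -0.06 for all probe sets. On day 7, 0 were called higher (1.28%) and 0 lower (0.386%), 2 had an unadjusted p under 0.05 (*Dazl* at -2.66 and *Tdrd5* at 2.42), and the median was -0.68 against -0.08. On day 15, 0 were called higher (2%) and 0 lower (0.8%), 1 had an unadjusted p under 0.05 (*Tdrd5*, 3.06, adjusted p = 0.119), and the median was 0.21 against -0.09.

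Since the day 0 arrays differed, each single array was also set against each of them, with no test. The day 4 array was more than 2-fold lower than replicate 1 for 4 members (2.17% of all probe sets) and than replicate 2 for 6 (2.96%). The day 7 array was more than 2-fold lower for 2 members (2.43%) and 6 members (4.05%). On each of these 2 days 1 member, *Tdrd5*, was more than 2-fold higher than both references. The shares of all probe sets were 4.29% and 5.69% for day 4 and 5.42% and 8.03% for day 7. On day 15 the counts depended on the reference. Against replicate 1, 4 members were more than 2-fold higher (7.18%) and 0 lower (4.33%). Against replicate 2, 1 was higher, again *Tdrd5* (7.39%), and 4 were lower (4.08%). Day 4 held the lowest of the 9 values for 6 members, *Ddx4*, *Dazl*, *Piwil2*, *Piwil4*, *Mael* and *Asz1* (6.3% of all probe sets). Of these, *Piwil4* was under the 25th percentile on every array, and *Asz1* was not lowest on day 4 in its second probe set. The day 4 values of *Mael* (4.63) and *Ddx4* (4.76) were also under that percentile, 4.82, and those of *Piwil2* (4.85) and *Asz1* (4.88) just above it. Day 0 replicate 2 held the highest value for 6 members, *Ddx4*, *Dazl*, *Piwil2*, *Mael*, *Asz1* and *Mov10l1* (24.9%).

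Among 16437 other genes with a named symbol, the patterns most like that of *Ddx4*, by the root mean square difference of centred log2 values over the 9 arrays, were *Pou5f1* (0.28), *Dazl* (0.48) and *Sall4* (0.48). For *Dazl* they were *Tex19.1* (0.44), *Ddx4* (0.48) and *Tfap2c* (0.51). *Pou5f1*, *Sall4* and *Tfap2c* belong to the fetal germ cell list, whose other measured genes, *Dnd1* and *Dppa3*, were not among the nearest. *Pou5f1* read 6.68 and 8.63 on day 0, 4.82 on day 4 and 8.30 on day 20 replicate 2. The genes nearest to *Tdrd5* were *Afap1l2* (0.25), *Gpm6b* (0.28) and *Lrig1* (0.28), none of them on a germ cell list. These likenesses are a description of 9 arrays that share 2 day 0 pools.

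The other cell type lists were read on the same arrays. The 5 genes of growing-follicle granulosa cells (*Inha*, *Hsd17b1*, *Slc18a2*, *Nr5a2*, *Amh*) averaged 6.44 and 6.80 on day 0 and 9.09 to 10.85 on the graft arrays, all 7 above both day 0 arrays as for *Tdrd5*; 4 of the 5 were called higher on both day 10 and day 20, and the same 4 on day 20 without its replicate 1. Over all probe sets, 2.87% were called higher on day 10 and 4.52% on day 20. The means of the macrophage list and the Sertoli list also had all 7 graft arrays above both day 0 arrays. Gene by gene this held for 4 of the 5 granulosa genes, all 4 macrophage genes and only 2 of the 5 Sertoli genes (10.3% of all probe sets). On day 20 the Sertoli gene *Dhh* was called higher and *Cst9* lower in the main fit (3.1% of all probe sets were called lower). Without day 20 replicate 1 their log2 fold changes were 1.94 and -1.45, and the call of *Dhh* was not kept. Which cells the *Tdrd5* signal came from was not tested. The 8 oocyte genes averaged 5.36 and 5.83 on day 0, 5.54 on day 4, 7.18 on day 7, 8.67 and 10.49 on day 10, 10.22 on day 15, and 9.73 and 10.31 on day 20. Of these, 6 were called higher on day 10 and 6 on day 20, among them *Zp3*, which encodes a zona pellucida glycoprotein and read 4.66 and 4.96 on day 0, near the 25th percentile, and 10.84 and 12.74 on day 10 (limma adjusted p = 0.00701). *Sohlh1*, an oocyte transcription factor, was not called and was at -1.11 on day 20.

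The 6 pre-granulosa genes averaged 11.95 and 11.85 on day 0 and 9.78 to 11.67 on the graft arrays. In the main fit 3 of these were called lower on day 10 (1.33% of all probe sets) and 5 on day 20 (3.1%), and 0 higher on either day. *Foxl2* ran the other way, with all 7 graft arrays above both day 0 arrays. Its log2 fold change was 1.29 on day 10 and 0.83 on day 20, not called on either in that fit. On day 20 it read 11.71 in replicate 1, the array with kidney transcripts, and 12.98 in replicate 2. Without that replicate 1 its day 20 value was 1.47, and that of *Rspo1* went from -1.94 to -1.58. Whether *Foxl2* and *Rspo1* were called on day 20 depended on that array. The 5 Sertoli genes averaged 7.63 and 7.55 on day 0 and 7.73 to 8.28 on the graft arrays.

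The 8 meiosis genes averaged 6.53 and 8.15 on day 0 and 5.71 to 6.35 on the graft arrays, with all 7 below both day 0 values. One of them, *Rec8*, the meiotic cohesin subunit, was called lower on days 10 and 20 (1.33% and 3.1% of all probe sets), with a log2 fold change of -3.43 on day 10. Of the 8 genes, 5 had all 7 graft arrays below both day 0 arrays (19.6% of all probe sets). *Sycp3*, a synaptonemal complex protein, did not: it read 7.68 and 9.91 on day 0 and 8.06 and 10.07 on day 10.

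**Figure D4:**
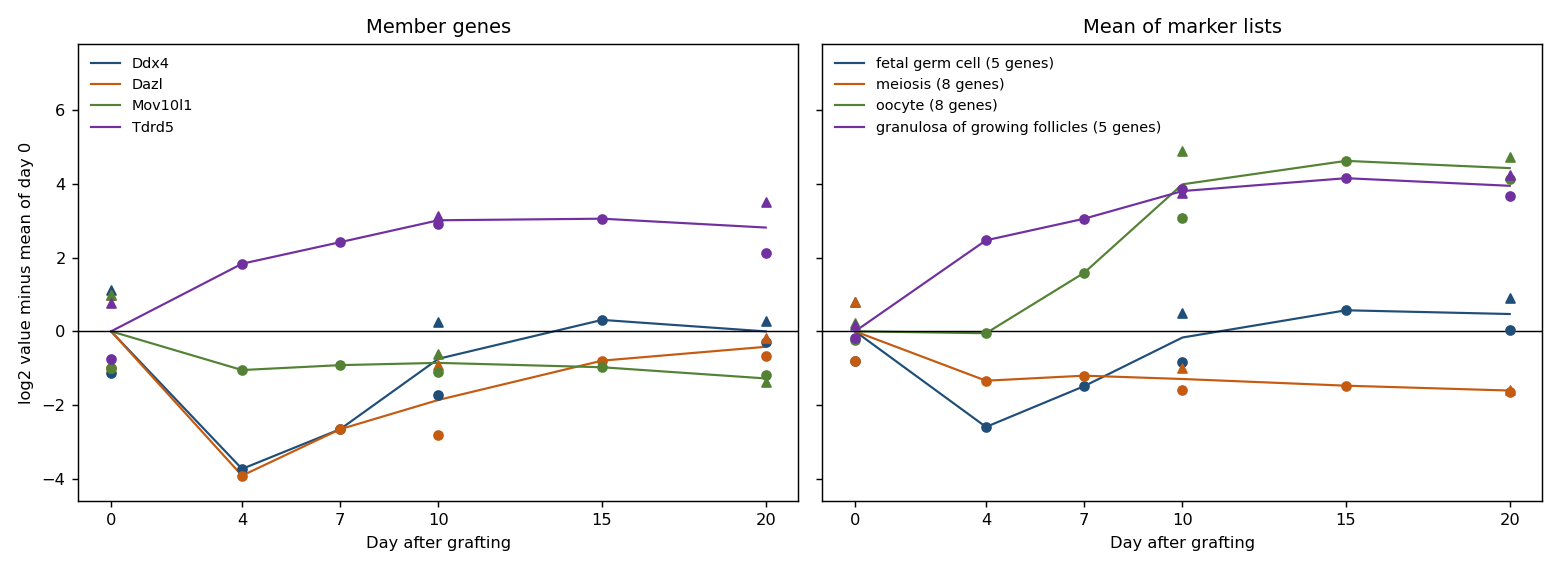
log2 value minus the mean of day 0 (y axis) against day post-transplantation (x axis) for 4 members (left) and for the means of 4 marker lists (right); circles are replicate 1 or single arrays, triangles replicate 2, and lines join day means. *Ddx4* and *Dazl* are at -3.73 and -3.92 on day 4, *Dazl* is at -0.42 on day 20, while *Tdrd5* and the granulosa and oocyte lists are above 0 on days 7 to 20.

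Of 21 further genes of the piRNA and germ granule pathway, 18 had a probe set of their own. On day 10, 0 of the 18 were called higher (2.87% of all probe sets) and 1 lower (1.33%), and on day 20, 0 higher (4.52%) and 2 lower (3.1%). Between day 20 and day 10, 0 were called higher (0.00222%) and 0 lower (0%). Their median log2 fold change was -0.55 on day 10 and -0.19 on day 20, against -0.09 and -0.11 for all probe sets.

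The called genes were *Ddx25* and *Mov10*. *Ddx25*, an RNA helicase of the spermatid chromatoid body, read 7.96 and 8.18 on day 0, 6.41 and 6.53 on day 10 and 6.30 and 6.96 on day 20, with no overlap; the log2 fold change was -1.60 (SE 0.25, limma adjusted p = 0.0301) on day 10 and -1.45 (adjusted p = 0.0265) on day 20. *Mov10*, the widely expressed relative of *Mov10l1*, read 9.53 and 9.78 on day 0 and 7.94 and 8.34 on day 20, a log2 fold change of -1.51 (SE 0.20, adjusted p = 0.0130). Without day 20 replicate 1 both were still called lower on day 20, at -1.12 for *Ddx25* (adjusted p = 0.0384) and -1.31 for *Mov10* (adjusted p = 0.0289).

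Named besides, by the mean signal of their probe sets, were *Tex15*, *Tdrd7* and *Gtsf1*; probe set signals do not order expression between genes. *Gtsf1*, a zinc finger protein that assists PIWI proteins and whose probe set carries the same suffix as that of *Piwil4*, gave 5.39 and 7.50 on day 0, 5.23 on day 4, 8.63 on day 7, 8.66 and 11.19 on day 10, 10.72 on day 15, and 10.51 and 10.997 on day 20. All arrays from day 7 on were above both day 0 arrays, 19.8-fold on the day 20 mean, and the adjusted p was 0.0544 (0.120 without day 20 replicate 1). *Tdrd7*, a Tudor protein also known from the lens, read 7.83 and 8.65 on day 0 and 9.17 to 9.56 on the graft arrays, a difference of 1.16 on day 10 (adjusted p = 0.104). *Tex15*, a nuclear protein needed for transposon methylation in the male germ line, was at 9.89 and 10.54 on day 0, 8.26 on day 4, 7.89 on day 7 and 9.57 and 9.59 on day 20, with its low on day 7.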

How the data were processed

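RNA of 9 pools of fetal ovaries or ovarian grafts was hybridised to Affymetrix Mouse Genome arrays after amplification with one of 2 labelling kits, and the kit of each array is not given. The authors deposited log2 values normalised by RMA (version not given in the sources used here), which were used unchanged. Groups were the days in the labels. Of 45101 probe sets, 34958 were annotated to 1 gene (symbols updated through gene identifiers), 932 to several and 9211 had no entry. Only the first kind named a gene.

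Each day was compared with another by limma 3.58.1 (lmFit and eBayes, R 4.3.3) with a mean per day over all 9 arrays, 3 residual degrees of freedom and a prior of 2.69. A call needed an adjusted p (Benjamini-Hochberg over all probe sets) under 0.05 and a change over 2-fold. The code was tested on simulated data. The number of arrays limits the precision, and the SD of the difference between duplicates was 0.45, 0.34 and 0.70 on days 0, 10 and 20.

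Named were all 10 members, the further pathway genes that were called in a comparison of days 0, 10 and 20 or were among the 4 of highest mean, and the 3 genes nearest in pattern to *Ddx4*, *Dazl* and *Tdrd5*. *Zp3*, *Sohlh1*, *Rec8*, *Sycp3*, *Dppa3*, *Dnd1*, *Foxl2*, *Rspo1*, *Dhh* and *Cst9* were named after their values were seen, as examples of lists. The members, the lists and the tests were chosen with earlier results of these data known. Promoter windows came from RefSeq (GRCm38.p6). Alternatives were an intensity trend, array weights, quantile or median scaling, a filter or floor on low values, a fit on the days compared alone, the replicate number as a block, a 1.5-fold threshold, other probe sets, and leaving out each array of days 0, 10 and 20.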

Additional observations from a re-analysis of the deposited data

How the results depend on the processing

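In the main setting no member was called. *Tdrd5* was the 1 member called higher on day 10 against day 0 with an intensity trend, with array quality weights, with only probe sets above the median of all means, with only the 2 days compared and with a replicate block; on day 20 the 1 member called higher was again *Tdrd5*, with the trend, quantile normalisation, median centring, the same filter and the block. Leaving out 1 array gave 0 to 1 members called higher on day 10 (*Tdrd5*, without either array of day 20, which is the same fit as with only the 2 days compared), and 0 to 1 called lower on day 20 (*Mov10l1*, without day 0 replicate 1). The labels do not say whether a replicate number links arrays of different days. Over 45101 probe sets, the differences of replicate 2 from replicate 1 correlated at -0.16 between days 0 and 10. The value was 0.15 between days 0 and 20 and -0.13 between days 10 and 20. These correlations cannot decide whether the arrays were paired. With the replicate number as a block, *Tdrd5* kept its values of 3.01 on day 10 and 2.82 on day 20, with a limma adjusted p of 0.0313 and 0.0237.

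Of 435 fold changes of members under other settings, 394 kept their sign and side of the threshold. A further 13 kept their sign and came past it, and 28 turned their sign, none of them past the threshold. Many of the 435 could not turn their sign. The intensity trend, array weights, filter on low means and replicate block left each log2 fold change as in the main setting. So did the 1.5-fold threshold, which used the main fit, and the fit on the compared days alone. Leaving out an array of a day not compared repeated that last fit. The 394 therefore do not measure how stable the values were. Of the 28, 27 came from leaving out 1 array, and the other was *Tdrd1* between days 20 and 10 with quantile normalisation (-0.0063). Over the arrays left out, the log2 fold change on day 10 ran for *Asz1* from -1.62 to 0.70, *Ddx4* -1.86 to 0.37, *Mael* -1.40 to 1.34, *Mov10l1* -1.86 to 0.14, *Piwil2* -0.82 to 0.74, *Piwil4* -0.17 to 0.36 and *Tdrd9* -0.38 to 0.96. For members that kept their sign it ran on day 10 from -2.85 to -0.88 (*Dazl*) and 0.35 to 1.67 (*Tdrd1*), and on day 20 from -2.28 to -0.28 (*Mov10l1*), -1.78 to -0.28 (*Piwil2*), 0.53 to 1.49 (*Tdrd1*) and 0.17 to 0.50 (*Tdrd9*). On day 20 it ran for *Asz1* from -0.46 to 1.85, *Dazl* -1.41 to 0.57, *Ddx4* -1.12 to 1.12, *Mael* -2.09 to 0.65 and *Piwil4* -0.16 to 0.70. Between day 20 and day 10 it ran for *Ddx4* from -0.25 to 1.73, *Mael* -1.81 to 0.42, *Piwil4* -0.26 to 0.60, *Tdrd1* -0.66 to 0.66, *Tdrd5* -0.89 to 0.50 and *Tdrd9* -0.62 to 0.72. Raised to the 25th percentile, *Piwil4* was at the floor on every array and gave no value. The filter on low means left 6 of the 10 members. Calls over all probe sets on day 10, 1293 higher in the main setting, ran from 69 without day 10 replicate 2 to 2034 with array weights. The cause of these differences was not tested. Signals near or under the 25th percentile limit what could be seen of those genes. This holds for *Piwil4*, the early values of *Tdrd1* and the day 4 values of *Ddx4*, *Mael*, *Piwil2* and *Asz1*.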
